A study of Mus musculus with 14 samples.

Results

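Noto, Chrd, Nog, Foxj1 and Bicc1 are 5 genes of the mouse node and notochord, taken by symbol from the 24054 genes quantified in every library. The node is the organizer at the front of the primitive streak, and cells that leave it form the notochord, the rod along the midline that patterns neural tube and gut. Noto is a homeobox transcription factor of node and notochord, Foxj1 is the transcription factor that switches on genes of motile cilia, Chrd and Nog are secreted proteins that bind Bmp ligands and keep them from their receptors, and Bicc1 is an RNA-binding protein that acts in left-right patterning. Foxa2, the pioneer transcription factor altered in these cells, is needed in the mouse embryo for node and notochord to form.

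The 14 libraries come from low-input RNA sequencing of mouse embryonic stem (ES) cell lines. In the con lines a single Foxa2 allele had its coding region replaced by the fluorescent reporter H2B-Venus, so they too had only one working allele, and in the ko lines both alleles were replaced. The d0con and d0ko cells (2 libraries each) were ES cells kept for a day on red-fluorescent feeder fibroblasts without LIF and sorted as Cherry-negative. The d3con and d3ko cells (3 libraries each) were sorted as Venus-positive after 3 days on Wnt3a-secreting feeder cells with 12 ng/ml Activin A, which drives ES cells towards endoderm. The d2-FVFn and d2-FVFp cells (2 libraries each) came from the line T119, TetON-Foxa2-Venus, which makes Foxa2 fused to Venus from a lentivirus when doxycycline is given. They had doxycycline for 48 h, at 40 ng/ml per the labels, in ES medium with LIF and serum, without feeder cells, and were sorted as Venus-negative and Venus-positive. The study's methods give that doxycycline concentration in another unit of volume. The clone numbers deposited with the libraries put replicates 1 and 3 of d3con in 1 clone and replicate 2 in another, and likewise in d3ko, so the 3 day 3 libraries of a genotype stand for 2 clones. The sources used here do not say whether the libraries of a clone, or those of T119, were grown as separate cultures, so p-values measure the spread between these libraries.

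Levels are in TPM, the share of all transcripts that a gene makes up, which takes account of gene length and library total. Changes were tested on counts with edgeR, and genes called higher or lower had to change by more than 1 on the log2 scale with an adjusted p below 0.05. Library totals ranged from 14142788 to 27278237 expected counts. Foxa2 was at 58.64, 34.81 and 54.47 TPM in d3con, at 0.11, 0.15 and 0.19 TPM in d3ko, at 2.99 and 2.01 TPM in d2-FVFn and at 168.57 and 159.81 TPM in d2-FVFp. At day 0 Foxa2 was at 0.13 and 0.14 TPM in d0con and at 0.07 and 0.11 TPM in d0ko. The contrasts of d3con with d3ko and of d2-FVFp with d2-FVFn matched the labels. The Venus-negative d2-FVFn libraries still held more Foxa2 RNA than the day 0 libraries. The summed level of 6 pluripotency markers lay between 2321 and 2525 TPM at day 0. It lay between 118 and 587 TPM in d3con and between 812 and 1907 TPM in d3ko. Of the 6, 4 were called higher in d3ko than in d3con, where 4.75% of all genes were. The summed level of 6 endoderm markers, Foxa2 not among them, was 785 to 985 TPM in d3con but 33.5 to 193 TPM in d3ko, although both groups were labelled endoderm cells, and was 17.5 to 25.9 TPM in d2-FVFp. Summed markers of visceral endoderm reached at most 8.30 TPM and those of neural tube and floor plate at most 18.6 TPM in any group. Summed feeder fibroblast markers (8 genes) were at 14.6 to 15.3 TPM in d0con and 37.3 to 122 TPM in d0ko. They were at 64.2 to 327 TPM in d3con, 132 to 397 TPM in d3ko and 3.16 to 5.53 TPM in the doxycycline libraries. None of the 8 was called between d3ko and d3con, where 4.75% of all genes were higher and 3.51% lower. With so few genes this count does not show equal feeder content. From day 0, 5 of the 8 were called higher in con and 2 in ko, where 20.6% and 11.6% of all genes were.

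Promoter sequences from RefSeq (assembly GRCm38.p6, 250 bases before to 50 after the gene start) were available here for 2 of the 5 genes, Noto and Chrd. They are printed 5′ to 3′ on the plus strand, on which both genes lie, to show the windows that were searched for short Foxa-type letters. The Noto window is chr6:85423636-85423935 and the Chrd window is chr16:20732877-20733176. Capitals mark the only match.
Noto: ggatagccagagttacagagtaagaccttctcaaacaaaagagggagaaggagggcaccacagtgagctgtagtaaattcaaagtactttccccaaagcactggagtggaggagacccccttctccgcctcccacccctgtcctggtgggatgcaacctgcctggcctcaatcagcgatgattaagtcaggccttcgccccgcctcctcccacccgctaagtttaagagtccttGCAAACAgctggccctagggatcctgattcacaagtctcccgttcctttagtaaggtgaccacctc
Chrd: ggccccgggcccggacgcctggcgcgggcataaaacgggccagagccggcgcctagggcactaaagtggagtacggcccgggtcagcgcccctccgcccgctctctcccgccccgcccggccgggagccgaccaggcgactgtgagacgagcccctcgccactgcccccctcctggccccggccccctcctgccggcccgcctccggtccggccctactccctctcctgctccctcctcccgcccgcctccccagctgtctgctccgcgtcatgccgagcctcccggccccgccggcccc
A forkhead motif was searched on both strands in 3 spellings. The first was TGTTTAC. The second was TGTTTGC. The third was TATTTAC. No match overlapped another in these windows. The Noto window held TGTTTGC once on the opposite strand, read as GCAAACA on the printed strand, 16 to 10 bases before the start. The Chrd window, of 78.3% GC against 54% for Noto, held none of the 3 spellings. Of 32841 promoter windows of the same length, 3.65% held the first spelling, 5.07% the second, 3.04% the third and 11.2% any of them. Nog, Foxj1 and Bicc1 had no promoter sequence in the set used here and were not searched.

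Noto (chromosome 6, 85423886 to 85428877, plus strand, GRCm38) was detected in d3con and d2-FVFp and was at or near 0 elsewhere. Noto was at 0 TPM in all 4 day 0 libraries. In d3con it stood at 1.46, 5.40 and 1.52 TPM. In d3ko it was at 0.07, 0 and 0 TPM, which was 1 read in all. The lowest d3con library thus lay above the highest d3ko library. Over the pooled libraries d3con was at least 29.8-fold higher than d0con (against a floor of 3 counts over the group; edgeR adjusted p = 0.00524). Pooled Noto was 141 times as high in d3con as in d3ko, with an exact 95% interval of 24.9 to 5608.5 that covers counting error only (edgeR adjusted p = 0.0173). In the doxycycline line Noto was at 0 TPM in both d2-FVFn libraries and at 0.51 and 0.36 TPM, or 6 and 5 counts, in d2-FVFp, at least 4.43-fold higher against the same kind of floor. That gene lay below the minimum for testing there, and with the minimum lifted it missed the threshold (edgeR adjusted p = 0.0668). The group means followed the order d3con, d2-FVFp, d3ko, with no overlap of libraries between these neighbours, and the remaining groups were at 0.

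Foxj1 (chromosome 11, 116330704 to 116335399, minus strand) differed from Noto in being present in ES cells already. Its level was 7.02 and 4.65 TPM in d0con and 5.61 and 6.25 TPM in d0ko. The d3con libraries gave 6.07, 57.50 and 4.38 TPM, so that replicate 2 alone lay far above day 0. In d3ko they gave 0.81, 7.99 and 3.16 TPM, overlapping both d0ko and d3con. No day 3 comparison passed the test: the log2 fold change was 1.73 ± 1.15 (SE) for d3con against d0con (edgeR adjusted p = 0.228), -0.76 ± 1.08 for d3ko against d0ko (adjusted p = 0.622) and -2.50 ± 1.02 for d3ko against d3con (adjusted p = 0.147). Without d3con replicate 2 the first of these turned to -0.33, and without replicate 2 of both day 3 groups Foxj1 was called lower in d3ko than in d0ko, with a log2 fold change of -1.70 (edgeR adjusted p = 0.0445).

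In the doxycycline line Foxj1 was at 1.67 and 2.05 TPM in d2-FVFn and at 18.87 and 21.01 TPM in d2-FVFp, and the groups were far apart. Foxj1 rose by 3.37 ± 0.23 (SE) on the log2 scale (edgeR adjusted p = 0.000831). The d2-FVFp libraries lay above all day 0 and d3ko libraries. They also lay above replicates 1 and 3 of d3con and below its replicate 2.

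Genes of the motile cilium, which Foxj1 is known to control, were listed as 19, of which 14 were tested at day 3. Between d3ko and d3con 3 of the 14 (21.4%) were called lower, where 3.51% of all genes were, and 1 (7.14%) higher, where 4.75% were, with a median log2 fold change of -0.58 over the 14 against 0.02 over all genes tested. Tekt2, a tektin of the ciliary microtubules, was at 5.003 ± 3.04 TPM (SD, n = 3) in d3con and 0.72 ± 0.11 in d3ko (a log2 difference of -2.79 with an SE of 0.58, edgeR adjusted p = 0.0208). 1700009P17Rik, also named Cfap126, fell by 2.52 ± 0.64 on the log2 scale (edgeR adjusted p = 0.0387). Rsph9, a radial spoke head protein, fell by 1.62 ± 0.39 (edgeR adjusted p = 0.0313). Rfx2, a transcription factor of ciliary genes, was the called gene in the other direction, at 9.27 ± 6.34 TPM in d3ko and 1.63 ± 1.20 TPM in d3con (edgeR adjusted p = 0.0419).

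From day 0 to day 3 in con, 3 of the 14 motile cilium genes (21.4%) were called higher and 2 (14.3%) lower, shares near the 20.6% and 14.6% of all genes. In ko 1 (7.14%) was called higher and 3 (21.4%) lower, against 11.6% and 5.72% of all genes. In con, Rfx3 rose by 2.42 ± 0.57 on the log2 scale and 1700009P17Rik by 3.85 ± 0.84, while Rfx2 fell by 3.38 ± 0.71 and Rsph1 by 1.38 ± 0.39. In ko, Rfx3 rose by 1.88 ± 0.55, while Spag6 fell by 2.11 ± 0.70, Rsph1 by 1.59 ± 0.38 and Mns1, a gene for a filament protein of cilia and sperm tails, by 1.35 ± 0.43. With induced Foxa2, 10 of the list were tested and 2 (20%) were called, both higher, where 6.96% of all genes were. They were Rsph9 at 3.60 ± 0.07 TPM (SD, n = 2) against 0.59 ± 0.08, and Dnaic1, a dynein arm protein, at 3.88 ± 0.41 against 1.27 ± 0.32. The median log2 fold change of the 10 was 0.42. Summed over the 19 genes, the list was at 63.3, 120.8 and 41.9 TPM in d3con and at 32.8, 44.0 and 41.1 TPM in d3ko, so the sums of the groups overlapped. Of all genes, 8.26% were called between d3ko and d3con. That share was 1.59% without d3con replicate 1, 0.579% without d3con replicate 3, 3.59% without d3ko replicate 1 and 3.76% without d3ko replicate 3. It was 9.33% without d3con replicate 2 and 16.3% without d3ko replicate 2, and the calls of the list moved with it. Between the day 3 groups the 4 calls became 0 without d3con or d3ko replicate 1 or 3, 1 when any single day 0 library was left out, 2 without d3con replicate 2 and 7 without d3ko replicate 2. Leaving out a doxycycline library left 0 or 1, and the con and ko day effects gave 2 to 8 and 0 to 4 calls with a library left out.

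Chrd (chromosome 16, 20733127 to 20742384, plus strand) rose in d3con and with induced Foxa2. Its level at day 0 was 0.90 and 0.42 TPM in d0con and 0.28 and 0.96 TPM in d0ko. The d3con libraries gave 9.09, 20.05 and 6.90 TPM. In d3ko they gave 0.40, 2.19 and 1.02 TPM, each below all d3con libraries and partly within the day 0 range. The log2 fold change was 3.98 ± 0.88 (SE) for d3con against d0con (edgeR adjusted p = 0.0053), 0.81 ± 0.79 for d3ko against d0ko (adjusted p = 0.46) and -3.32 ± 0.71 for d3ko against d3con (adjusted p = 0.0224). The difference between the 2 day effects, tested as an interaction, was -3.17 ± 1.11 and did not pass (edgeR adjusted p = 0.27). Without d0con replicate 2 the rise in con missed the threshold (adjusted p = 0.0527).

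With doxycycline Chrd was at 0.35 and 0.94 TPM in d2-FVFn and at 6.24 and 5.79 TPM in d2-FVFp. The groups did not overlap, and Chrd rose by 3.15 ± 0.43 (SE) on the log2 scale (edgeR adjusted p = 0.00514). The level in d2-FVFp lay below every d3con library and above every d3ko library. Chrd shares 239 of its 6258 exon bases with Thpo, the thrombopoietin gene on the other strand, and the library kits keep no strand, so reads from the shared stretch cannot be told apart. Thpo was at 9.25, 15.45 and 10.46 TPM in d3con, at 3.08, 3.24 and 4.27 TPM in d3ko, at 4.02 and 2.65 TPM in d2-FVFn and at 7.42 and 7.70 TPM in d2-FVFp. It was called in the same directions as Chrd with smaller changes, -1.74 ± 0.31 on the log2 scale for d3ko against d3con (edgeR adjusted p = 0.0136) and 1.14 ± 0.30 for d2-FVFp against d2-FVFn (adjusted p = 0.0404).

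Nog (chromosome 11, 89300638 to 89302332, minus strand), the other Bmp antagonist among the 5, rose in both genotypes. It was at 0.05 and 0.20 TPM in d0con and at 0.22 and 0.12 TPM in d0ko. At day 3 it was at 4.24, 5.92 and 3.57 TPM in d3con and at 4, 1.62 and 0.60 TPM in d3ko. Every day 3 library lay above every day 0 library, and d3ko replicate 1 fell inside the d3con range. The log2 fold change was 4.96 ± 1.01 (SE) in con (edgeR adjusted p = 0.00352) and 3.36 ± 0.92 in ko (adjusted p = 0.024). The direct comparison of d3ko with d3con gave -1.15 ± 0.66 (edgeR adjusted p = 0.296), and the interaction -1.61 ± 1.31 (adjusted p = 0.642). The call in ko was lost when either d0ko library was left out, with 0 of the 5 genes then called. With doxycycline Nog was at 0.24 and 0.15 TPM in d2-FVFn and at 0.14 and 0.60 TPM in d2-FVFp. These libraries overlapped, and a pooled ratio of 2.07 had an exact 95% counting interval of 0.752 to 6.21.

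Other Bmp antagonists and proteins that act on chordin, a list of 17, had 10 members tested. Between d3ko and d3con edgeR called none of them, where 4.75% of all genes were higher and 3.51% lower. The median log2 fold change there was -0.09. From day 0, 6 (60%) rose in con and 5 (50%) in ko, where 20.6% and 11.6% of all genes did, with medians of 2.44 and 1.52. No gene of the list was lower in either, where 14.6% and 5.72% of all genes were. Cer1, a secreted inhibitor of Nodal and Bmp, was at 0 TPM in d0con, at 546 ± 2.15 TPM (SD, n = 3) in d3con and at 1.22, 56.36 and 1.87 TPM in d3ko. Its log2 fold change for d3ko against d3con was -4.82 ± 1.285 (SE), just short of the threshold (edgeR adjusted p = 0.0501). Bmper rose by 5.35 ± 1.01 (SE) on the log2 scale in con and by 3.73 ± 0.89 in ko. Tll1, a protease of the family that cleaves chordin, rose by 4.28 ± 0.87 in con and by 3.96 ± 0.84 in ko. In d2-FVFp 4 of the 10 (40%) were called higher and none lower, where 6.96% and 1.47% of all genes were, with a median of 1.21. Among the 4 were Tll1 at 11.2 ± 1.90 TPM against 0.995 ± 0.205, Fstl1 at 129.6 ± 39.6 TPM against 35.8 ± 4.35, and Cer1 at 1.81 ± 0.31 TPM against 0.09 ± 0.12. Without d0ko replicate 1 or 2 the 5 calls in ko became 1, without d3con replicate 2 or d3ko replicate 2 the day 3 comparison gained 1 or 2 genes lower in d3ko, and without d2-FVFn replicate 1 the 4 calls became 2.

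The ligands that chordin and noggin bind were listed as 7 Bmp and Gdf genes, of which 5 were tested at day 3. In con as in ko 4 of the 5 (80%) rose and 1 (20%) fell from day 0. Among the 4 was 1 Gdf gene, at or below 1.15 TPM in every day 3 library. Of all genes, 20.6% rose and 14.6% fell in con, and 11.6% rose and 5.72% fell in ko. Bmp2 was at 0.05 TPM in d0con and 33.7 ± 8.50 TPM (SD, n = 3) in d3con, and at 0.01 TPM in d0ko and 30.5 ± 24.3 TPM in d3ko. Bmp7 rose by 3.995 ± 0.945 (SE) on the log2 scale in con and by 2.58 ± 0.86 in ko. Bmp5 was at 0 TPM at day 0 and at 8.98 ± 6.03 TPM in d3con and 3.32 ± 2.75 TPM in d3ko. Bmp4, abundant in ES cells at 172 ± 36.4 TPM in d0con and 126 ± 20.4 TPM in d0ko, fell to 7.27 ± 2.74 TPM in d3con and to 41.0 ± 19.7 TPM in d3ko, and was the single ligand that differed between the day 3 groups (d3ko was higher by 2.49 ± 0.44 on the log2 scale, edgeR adjusted p = 0.0137). Of all genes, 4.75% were called higher in d3ko than in d3con. In the doxycycline line 3 of 4 tested ligands (75%) were called higher in d2-FVFp, where 6.96% of all genes were. They were Bmp2 at 1.33 ± 0.06 against 0.04 ± 0.06 TPM, Bmp6 at 2.87 ± 1.20 against 0.46 ± 0.04 TPM and Bmp7 at 5.74 ± 0.01 against 1.37 ± 0.24 TPM. Without d0ko replicate 1 or 2 the calls in ko became 1 or 2, without either d2-FVFp library those in the doxycycline line became 1, and Bmp4 was not called between the day 3 groups without d3con replicate 1 or 3.

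Bicc1 (chromosome 10, 70922832 to 71159700, minus strand) was low throughout. It was at 0.25 and 0.31 TPM in d0con and at 0.11 and 0.51 TPM in d0ko. The d3con libraries gave 1.99, 1.95 and 1.19 TPM and the d3ko libraries 0.71, 1.85 and 0.89 TPM. Day 3 lay above day 0 in every library of both genotypes, while d3con and d3ko overlapped. The log2 fold change was 2.39 ± 0.73 (SE) for d3con against d0con (edgeR adjusted p = 0.0214), 1.72 ± 0.70 for d3ko against d0ko (adjusted p = 0.0908) and -0.60 ± 0.57 for d3ko against d3con (adjusted p = 0.54). With the clone as a block, which pairs day 3 with day 0 libraries of the same clone, the change in ko was 2.14 and passed (edgeR adjusted p = 0.0295). Without d0con replicate 1 or 2 the rise in con missed the threshold. In the doxycycline line Bicc1 was at 0.26 and 0.31 TPM in d2-FVFn and 0.30 and 0.70 TPM in d2-FVFp, a pooled ratio of 1.85 with an exact 95% counting interval of 0.965 to 3.63. Bicc1 shares 349 of its 7441 exon bases with an antisense gene, 4930533K18Rik, and reads from that stretch cannot be told apart.

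Partners and targets of Bicc1 were listed as 13 genes, all tested. In con 3 (23.1%) rose from day 0 and none fell, where 20.6% of all genes rose and 14.6% fell. In ko 2 (15.4%) rose and none fell, where 11.6% of all genes rose and 5.72% fell. The shares that rose were near those of all genes. Between d3ko and d3con 1 (7.69%) was called lower and none higher, where 3.51% and 4.75% of all genes were. With doxycycline edgeR called none, where 6.96% of all genes were higher and 1.47% lower. With 13 genes, counts of none beside such shares do not set the list apart from all genes. Anks6, a protein that binds Bicc1, was at 0.13 ± 0.01 TPM (SD, n = 2) in d0con and 0.77 ± 0.28 TPM (n = 3) in d3con, and rose from 0.12 ± 0.05 TPM to 1.17 ± 0.42 TPM in ko. Pkd1, the gene for polycystin-1, rose by 1.12 ± 0.34 (SE) on the log2 scale in con. Without a d0con library 1 of the 3 calls in con was left. The medians of the 13 genes lay between -0.09 and 0.29 in the 4 comparisons of day, genotype at day 3 and doxycycline.

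**Figure D1:**
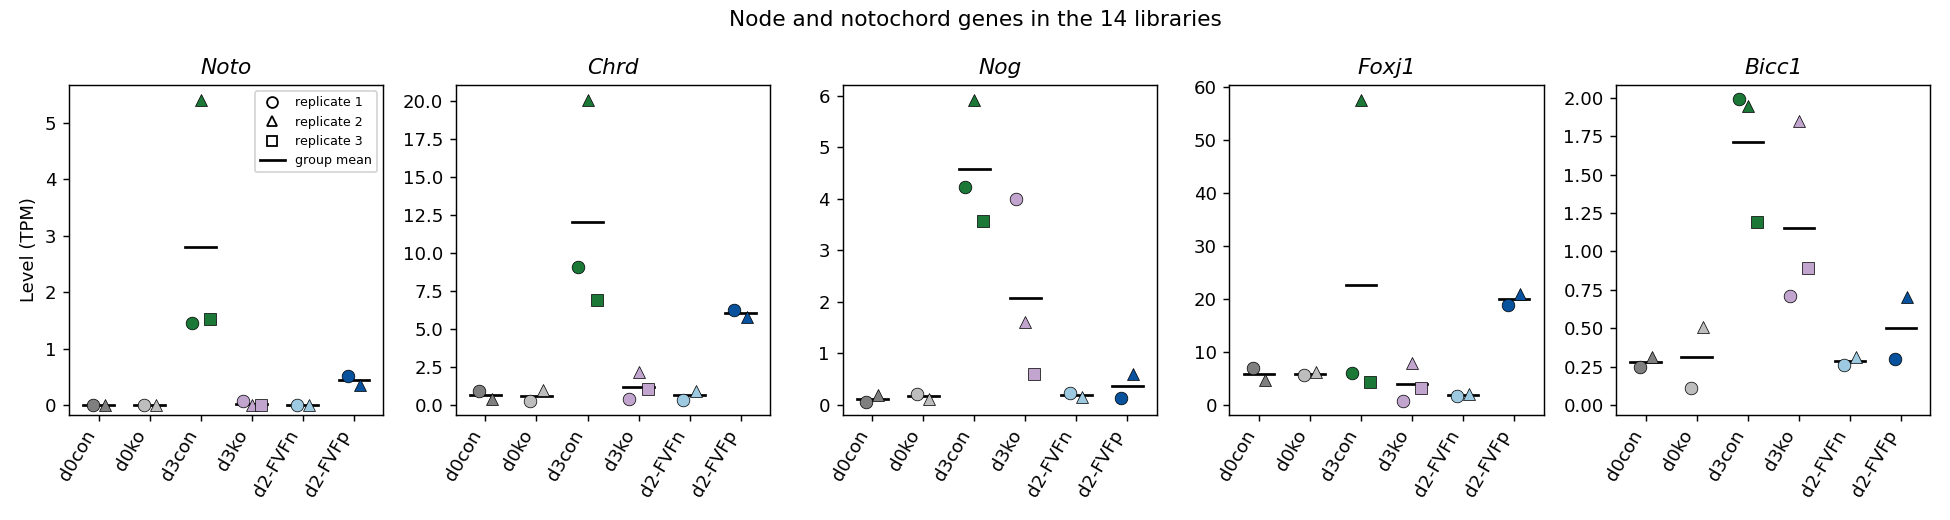
Levels of the 5 genes in TPM (vertical axis, a separate linear scale for each gene) in the 14 libraries by group, with a point per library shaped by replicate number and a bar at the group mean. Noto was highest in d3con, with d2-FVFp at 0.51 and 0.36 TPM, and Chrd was higher in d3con and d2-FVFp than in the other groups. Nog and Bicc1 had their highest levels in d3con, and the Foxj1 mean of d3con rests on replicate 2 at 57.50 TPM.

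Set side by side, the 5 genes gave 4 called higher in d3con than in d0con (Noto, Chrd, Nog and Bicc1), where 20.6% of all genes tested were called higher and 14.6% lower. From d0ko to d3ko 1 of the 5 was called higher (Nog), where 11.6% of all genes were called higher and 5.72% lower. Between d3ko and d3con 2 of the 5 were called lower (Noto and Chrd), where 3.51% of all genes were, and none higher, where 4.75% were. In d2-FVFp 2 of the 5 were called higher (Chrd and Foxj1), where 6.96% of all genes were (and 1.47% lower), and the other 3 lay under the minimum for testing. Between d0ko and d0con and in the interaction of genotype and day, edgeR called none of the 5 (0% of all genes in either). With Noto at 0 TPM in every day 0 library, neither of these tests could call it. The interaction also missed Foxa2, the altered gene itself, at -7.68 on the log2 scale (edgeR adjusted p = 0.0544). A missing call there therefore does not show that the day effects were equal. At an unadjusted p under 0.05 none of the 5 passed between the day 0 groups, where 195 genes did, and Chrd passed in the interaction, where 1840 genes did. DESeq2 likewise called none of the 5, among 0.00719% of all genes called between the day 0 groups and 4.07% in the interaction. The comparisons d3con against d0con and d3ko against d3con share the d3con libraries, so their values for a gene are not independent.

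**Figure D2:**
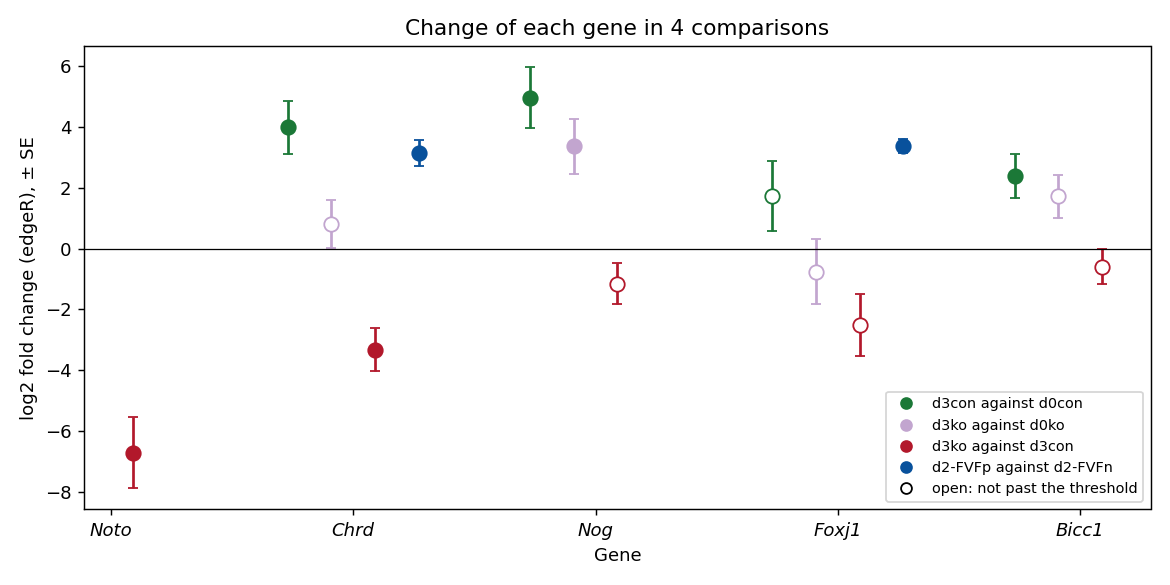
Log2 fold change from edgeR with its standard error (vertical axis) for each gene in 4 comparisons, with filled points past the threshold and open points not. Noto is drawn only for d3ko against d3con, since its other comparisons have a group at 0 or were not tested. Chrd is the gene past the threshold upwards in d3con and d2-FVFp and downwards in d3ko.

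The calls of Noto and Chrd between d3ko and d3con depended on the libraries. With only those 2 groups in the fit the adjusted p was 0.053 for Noto and 0.0591 for Chrd, and with replicates 1 and 3 of each genotype, the same clone, summed it was 0.11 and 0.125. Both calls were lost without d3con replicate 1, d3con replicate 3, d3ko replicate 1 or d3ko replicate 3, and both held without d3con replicate 2 or d3ko replicate 2. Fewer of all genes were called in each fit that lost both. With all 10 libraries in the fit 8.26% were called, higher or lower. With only the 2 groups 0.496% were, and with replicates 1 and 3 summed 0.00732%. Leaving out a library whose loss ended both calls gave 0.579% to 3.76%. Leaving out d3con replicate 2 gave 9.33% and d3ko replicate 2 16.3%. In sorted bulk cells a lower share of cells that express a gene and less RNA of it per cell cannot be told apart.

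Replicate 2 of d3con, the single d3con library of its clone, had the highest Noto, Chrd, Nog and Foxj1 of the 3 d3con libraries. Against the mean of replicates 1 and 3 it was 3.62 times as high for Noto, 2.51 times for Chrd, 1.52 times for Nog, 1.23 times for Bicc1 and 11 times for Foxj1. T, the brachyury gene of primitive streak and notochord, was 9.72 times as high there, at 130.6 TPM against 11.39 and 15.49 TPM. Foxa2 was 0.616 times and Sox17, a definitive endoderm gene, 0.519 times as high. Summed pluripotency markers were 4.82 times as high, a sum carried by Pou5f1 (319 against 63.5 and 59.7 TPM) and Nanog (246 against 40.2 and 42.5 TPM), while Zfp42 was at 10.9 against 11.2 and 10.3 TPM. Mesoderm markers were 2.27 times and feeder markers 0.234 times as high. In d3ko, replicate 2 was the highest for Chrd, Foxj1 and Bicc1 and not for Noto or Nog, and T was at 13.74, 211.9 and 55.69 TPM. There the pluripotency sum was 0.51 times, the endoderm sum 3.05 times and the mesoderm sum 4.66 times the mean of replicates 1 and 3. T itself did not differ past the threshold between d3ko and d3con (a difference of 0.84 on the log2 scale with an SE of 1.04, edgeR adjusted p = 0.643). Replicate 2 of d3con had the lowest feeder sum of the 3 d3con libraries. The doxycycline cells, another line grown without feeders, had feeder sums of at most 5.53 TPM. The part of these marker levels in the results for the 5 genes was not tested. The effective lengths in the tables correspond to 75-base reads in replicate 1 of both day 3 groups and to 50-base reads elsewhere. The labels give no read length, and the study's methods name only the shorter one.

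**Figure D3:**
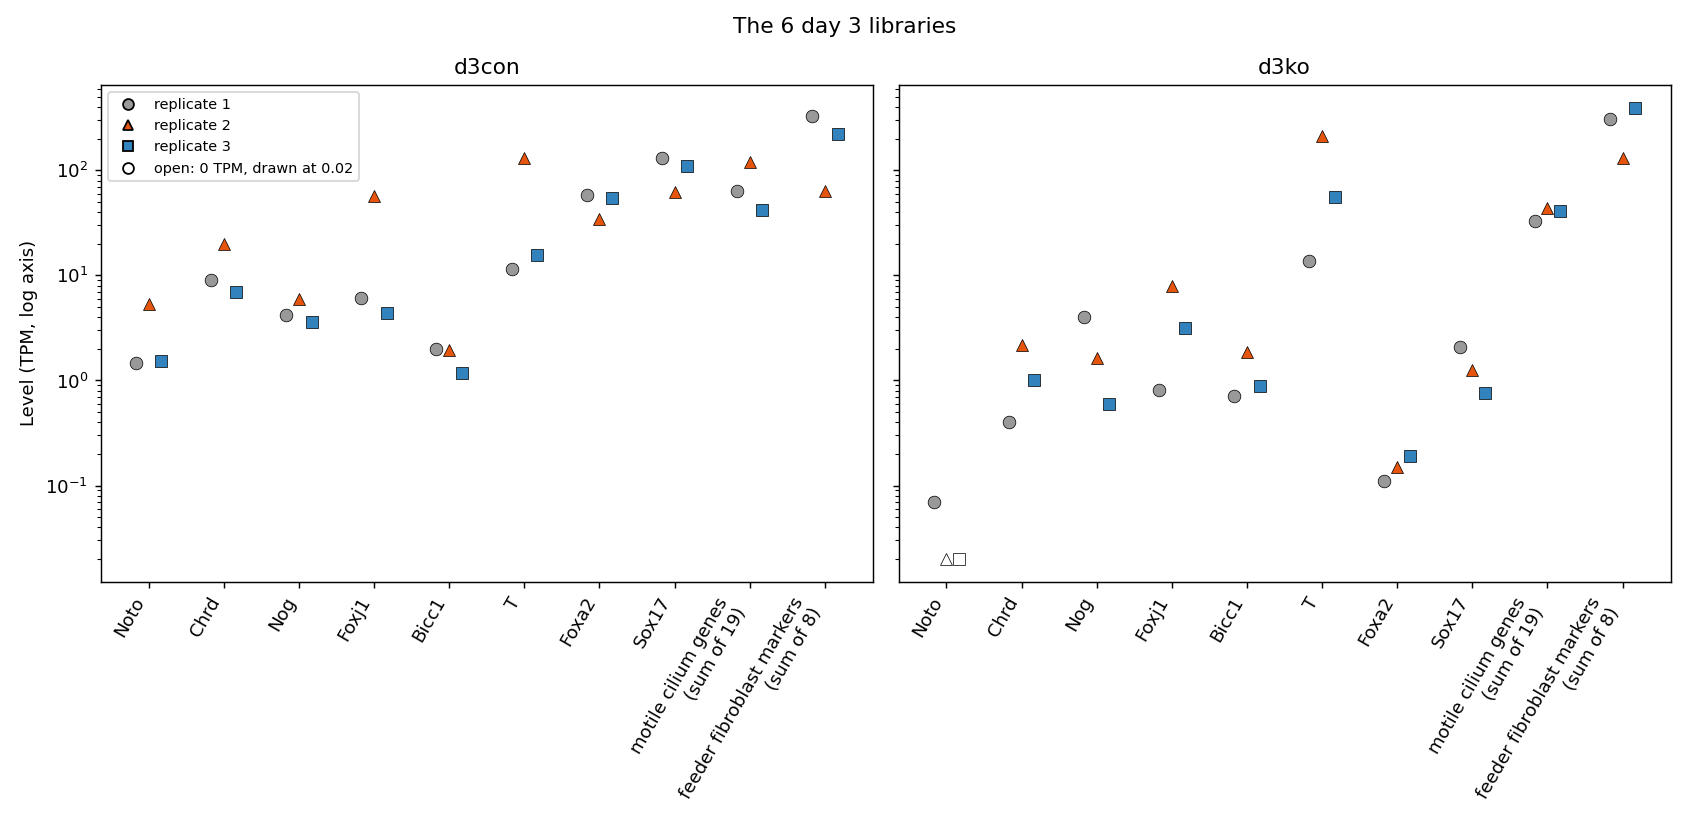
Level in TPM (log axis) of the 5 genes, of T, Foxa2 and Sox17, and of 2 gene lists as sums, in the 3 d3con (left) and 3 d3ko libraries (right), with a symbol per replicate and open symbols for 0 TPM. Replicate 2 is highest for Noto, Chrd, Nog, Foxj1 and T in d3con and lowest for the feeder markers in both groups.

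Other genes of node and notochord, a list of 15, had 13 tested at day 3 and 10 in the doxycycline line. Of the 13, 9 (69.2%) rose from d0con to d3con and 4 (30.8%) from d0ko to d3ko, where 20.6% and 11.6% of all genes did. None fell in either, where 14.6% and 5.72% of all genes did. In d3ko 6 (46.2%) were lower than in d3con, where 3.51% of all genes were, and none higher, where 4.75% were. The median log2 fold change of this comparison was -0.97. Shh, the signal secreted by the notochord, was at 0.76, 1.46 and 0.69 TPM in d3con and 0 TPM in all d3ko libraries (edgeR adjusted p = 0.0207). Foxa1, the close relative of Foxa2, was at 18.96 ± 10.3 TPM (SD, n = 3) in d3con and 0.10 ± 0.03 TPM in d3ko (edgeR adjusted p = 0.00349). Col2a1, a collagen of the notochord, fell by 2.48 ± 0.38 (SE) on the log2 scale in d3ko and Gsc, an organizer transcription factor, by 2.27 ± 0.51. Lefty1 and Lefty2, inhibitors of Nodal, were the other 2 and fell by 2.09 ± 0.30 and 2.20 ± 0.30. T, Gsc, Sox9 and Cyp26a1, an enzyme that breaks down retinoic acid, were the 4 that rose in ko, with Cyp26a1 at 406 ± 128.5 TPM in d3con and 210.2 ± 136.7 TPM in d3ko. With the clones summed 0 of the list was called between d3ko and d3con, where 0.00732% of all genes were. With only the 2 groups in the fit 2 of the list were called, where 0.496% of all genes were.

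In d2-FVFp 5 of the 10 tested genes of this list (50%) were called higher, where 6.96% of all genes were. None was called lower, where 1.47% of all genes were, and the median log2 fold change was 0.87. Shh was at 15.50 and 16.09 TPM against 0 and 0.04 TPM in d2-FVFn, and so stood above its level in every d3con library. Sox9, a transcription factor of cartilage and notochord, was at 5.21 ± 0.66 TPM (SD, n = 2) against 0.06 ± 0.08 TPM. Cyp26a1 rose by 3.59 ± 0.36 (SE) on the log2 scale. Col2a1 and Lefty2 were the other 2, with log2 fold changes of 1.46 ± 0.32 and 1.58 ± 0.19. Foxa1, at 0.30 ± 0.17 TPM (SD, n = 2), and T, at 0.56 ± 0.06 TPM, stayed at or below 0.60 TPM in d2-FVFp. Leaving out d2-FVFp replicate 1 or 2 left 2 or 1 of the list called.

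**Figure D4:**
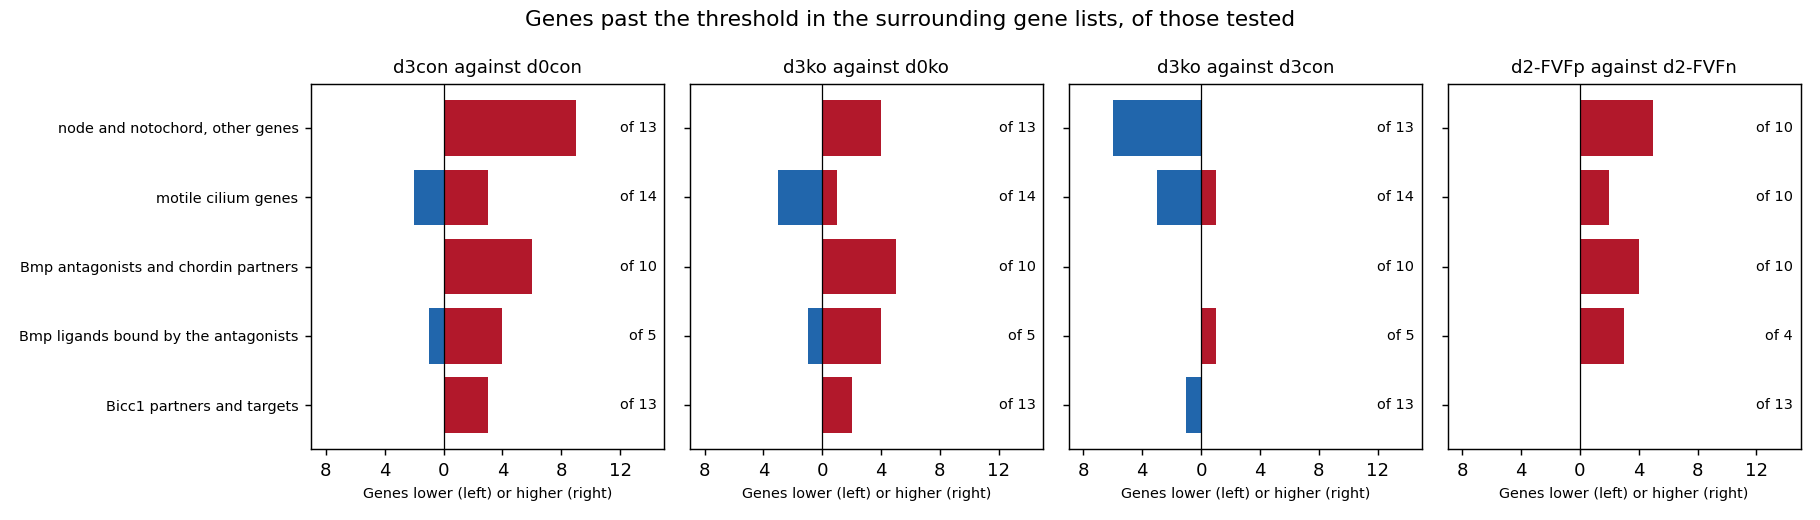
Number of genes called higher (to the right, red) or lower (to the left, blue) in 5 lists around the members in 4 comparisons, with the number tested at the right edge. The other node and notochord genes give 6 lower of 13 in d3ko against d3con, where 3.51% of all genes were lower. They give 5 higher of 10 in d2-FVFp against d2-FVFn, where 6.96% of all genes were higher. The Bmp antagonists give none between d3ko and d3con.

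Across the 14 libraries the genes most like each member by Pearson's r of log2(TPM + 1), among 14296 genes with at least 1 TPM in at least 2 libraries, were 1110017D15Rik (r = 0.943), 1700028P14Rik (0.933) and 1700088E04Rik (0.93) for Noto, and Fam89a (0.956), Camk1g (0.951) and Thpo (0.949), which overlaps it, for Chrd. For Nog they were 1700029J07Rik (0.974), Arsg (0.969) and Pkdcc (0.966). For Foxj1 they were Itgb5 (0.876), Plgrkt (0.849) and Ttc30b (0.832), and for Bicc1 they were Dcbld2 (0.963), H2-Ab1 (0.955) and Col4a5 (0.949). Among the members themselves r was highest for Noto and Chrd (0.893) and lowest for Nog and Foxj1 (0.18). The libraries of a group share genotype, day and culture, so these values describe the 14 libraries and are not independent points.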

How the data were processed

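RNA was measured in 14 libraries. The authors aligned reads to mm10 with STAR and quantified each library with RSEM, in versions not given in the sources used here. The deposited expected counts are RSEM's unscaled estimates of reads per gene, which share reads matching several genes. The deposited TPM values were scaled by the authors with RSEM for length and library total. Library preparation kept no strand.

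Groups and replicate numbers came from the sample titles. Expected counts were rounded to whole numbers, and genes with at least 1 CPM in at least 2 libraries were kept. The 10 libraries of day 0 and day 3 made up 1 model (13899 genes) and the 4 doxycycline libraries another (12943 genes). After TMM scaling, the quasi-likelihood test of edgeR 4.0.16 (R 4.3.3) gave p-values, adjusted over all genes by Benjamini-Hochberg. Standard errors are the size of the log2 fold change divided by the square root of F. Scripts were tested on simulated data. RLE scaling, other filters, DESeq2 1.42.0, limma 3.58.1 on log2(TPM + 1), fits of only 2 groups, blocks and left-out libraries were tried.

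Replicates with the same number within a genotype are the same clone at day 0 and day 3, which pairs them, although their deviations from the group means correlated only at -0.071 to 0.038. That block was added after seeing the data. Across genotypes the numbers name different clones (0.011 to 0.578 at day 3).

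The 5 genes and the gene lists were chosen with earlier results of these data known. Named beside them are Foxa2, up to 3 called genes of a list per comparison and direction by fold change with at least 1 TPM in the higher group, and the 3 genes most like each member. Shh, Lefty1, Lefty2, T and Sox17 were also named after their values were seen in some comparisons. A gene of the Bicc1 list is not reported here by name. Positions are from GENCODE vM21 (GRCm38). Intervals and floors cover counting error only.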

Additional observations from a re-analysis of the deposited data

How the results depend on the processing

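The share of all genes called between d3ko and d3con, higher or lower, moved with the fit. With all 10 libraries in the fit 8.26% were called, and 0.612% at an adjusted p under 0.01. With only the 2 groups compared 0.496% were, and with replicates 1 and 3 summed 0.00732%. The count of the 5 genes called stayed the same under RLE scaling, no filter, DESeq2, limma and the replicate block in all 6 comparisons. It changed elsewhere, mostly for the day 3 genotypes. For d3ko against d3con it was 0 with only the 2 groups compared, 0 at an adjusted p under 0.01, 0 with replicates 1 and 3 summed, 1 at a mean count of at least 50 (which removes Noto, Nog and Bicc1 from the test) and 0 to 2 over the fits that leave out libraries, with 0 without replicate 1 or 3 of both day 3 groups. For d3ko against d0ko it was 0 with only the 2 groups, 0 at an adjusted p under 0.01, 0 at a mean count of at least 50, 2 with the clone as a replicate block, and 0 to 2 with libraries left out, with 0 without replicate 1 and 2 without replicate 2 of both day 3 groups. For d3con against d0con it was 3 at an adjusted p under 0.01, 1 at a mean count of at least 50 and 2 to 4 with libraries left out. For d2-FVFp against d2-FVFn it was 2 in every fit that was run.

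Signs turned only for changes that were not called. Between d0ko and d0con, Foxj1 was 0.04 with limma, Bicc1 was -0.09 with the replicate block, and leaving out a library gave ranges of -1.26 to 0.51 for Chrd, -0.26 to 1.79 for Nog, -0.28 to 0.30 for Foxj1 and -1.31 to 0.78 for Bicc1. Leaving out libraries gave -0.33 to 2.23 for Foxj1 in d3con against d0con, with -0.33 without replicate 2 of both day 3 groups, and -1.37 to 0.72 for Bicc1 in the interaction. The block by number pairs different clones across genotypes, and its replicate 1 pair at day 3 also shares the 75-base reads. With it Noto (edgeR adjusted p = 0.039) and Chrd (edgeR adjusted p = 0.0316) stayed called between d3ko and d3con. The causes were not tested. The genes most like each member changed with the pseudocount. Low counts limit Noto, Nog and Bicc1 in the doxycycline line.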
